A study of Mus musculus with 48 samples.

Results

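Chromatin accessibility was compared between mouse small cell lung tumors with and without amplification of Nfib, all started with an adenovirus that carries Cre under the CMV promoter. The groups were the 8 libraries labelled V_1 and the 7 labelled V_0, which are 15 of the 48 libraries of the series. The comparison covered every merged ATAC-seq peak with a p-value in the authors' deposited table, 113873 of 114043. Each peak is 501 bp wide and its position is given on mouse build mm9.

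All 15 libraries came from the genotype Trp53-/-;Rb1-/-;p130-/-;R26mG and received Ad-CMV-Cre, so the loss of these tumor suppressors was shared by both groups. The CMV promoter is active in many cell types, and the vector therefore does not restrict Cre to one kind of lung cell. The 8 amplified libraries were 5 liver metastases, 1 lymph node metastasis and 2 lung tumors, and the labels called the chromatin of all 8 hyperaccessible. The 7 libraries without amplification were all lung tumors, and the labels called all 7 hypoaccessible. Amplification, the labelled state and, for 6 of the 8, growth outside the lung cannot be told apart. Sample preparation batch 1 held 2 amplified and 2 other libraries, and batch 3 held 6 and 5. The code in the titles of 11 of the 15 libraries began with V5. The labels do not give its meaning, so samples may share an animal. Leading codes V1 and V5 occurred in both groups. Leaving out a final letter, 5 distinct codes covered the 8 amplified libraries and 5 the 7 others. Several libraries thus shared a code and may come from the same tumor. How the authors' fit treated libraries with a shared code is not known. The description of 1 library without amplification did not list this comparison's table, so the authors' fit may have taken 14 or all 15 libraries. Ages were not given in the labels. The other 15 CMV libraries were marked as low in enrichment and belong to neither group.

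NFIB is a transcription factor of the nuclear factor I family that binds DNA as a dimer. It takes part in lung and brain development, and copies of its gene are often gained in mouse small cell lung cancer. Small cell lung cancer is a neuroendocrine tumor whose cells share many genes with neurons, among them genes for cell adhesion and axon guidance. ATAC-seq measures where the transposase Tn5 can insert into DNA, which marks promoters, enhancers and other open sites. Gene-dense parts of a chromosome hold many promoters, whereas gene deserts hold few genes and mostly distal elements.

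Nfib lies on mouse chromosome 4, and its own locus was not analysed here. The merged peaks left 56 stretches of at least 2 Mb without a peak, 551 Mb in all over 20 chromosomes, although the authors' pooled summit lists held summits there. The longest spanned 92.6 Mb of chromosome X, 50.4 Mb of chromosome 7 and, on chromosome 4, the bases from 97989382 to 148000815. Peaks in these stretches were not analysed here, and a count of merged peaks near their edges is too low. The labelled tissue was not checked against marker genes, since no gene annotation of build mm9 was used.

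Accessibility rose at 39032 peaks (34.3% of those tested) and fell at 13936 (12.2%) in the amplified group, taking the first test of the authors' deposited table and a limit of 0.05 on its adjusted p. The median log2 fold change was 2.44 over the risen peaks, and 65.4% of them were at 2 or above. Over the fallen peaks it was -1.54, and 31.4% of them were at -2 or below. Changes of at least 4 on the log2 scale occurred at 3719 risen peaks and 223 fallen ones. A second deposited test, which asks whether a change is larger than 0.5 in size on the log2 scale, called 21603 peaks higher (19%) and 5280 lower (4.64%).

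The direction of this balance depends on where zero is set. The median log2 fold change over all tested peaks was 0.60, with quartiles of -0.31 and 1.88, and the median standard error was 0.59. With that median subtracted, 22710 peaks were higher (19.9%) and 29095 were lower (25.6%), so more peaks were then lower than higher. Shares below use the deposited values, and centred values stand beside them for some of the classes only.

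Ad-CGRP-Cre tumors, in which Cre is limited to cells with an active CGRP promoter, gave a second comparison with no library in common. There, 7 liver metastases were set against 11 lung tumors, and 79 of 105121 peaks with an adjusted p were higher (0.0752%) and 819 lower (0.779%). A z test of the difference between the CMV and the CGRP log2 fold change, adjusted over 113873 peaks by the Benjamini-Hochberg method, called 20259 peaks higher in CMV (17.8%) and 6401 lower (5.62%). Of the CGRP libraries, 1 lung tumor was labelled as amplified and the other 10 and all 7 metastases were not, so this test compares a contrast by amplification with a contrast by site. Neither log2 fold change was centred for it, so the CMV median of 0.60 enters the difference.

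Isolated peaks were raised somewhat more often than clustered ones. Among 25544 peaks whose nearest merged peak lay 10 to 50 kb away, 38.3% were raised and 8.82% lowered, and the median change was 0.96 on the log2 scale. Among 36642 peaks with a neighbor under 2 kb away, 30.7% were raised and 14.5% lowered, with a median of 0.33. Peaks 2 to 10 kb from a neighbor lay between, with 34.9% raised and 12.4% lowered. The gradient did not run on into the widest spacings. At 50 to 200 kb 31.4% of 1215 peaks were raised, and at 200 kb or more 13 of 78 peaks were raised and 8 lowered. Some widely spaced peaks, such as isolated raised peaks on chromosomes 4 and X, adjoin a stretch without merged peaks. Their spacing can therefore be overstated. On the centred values, 23.0% were raised and 18.9% lowered at 10 to 50 kb, but under 2 kb 16.4% were raised and 32.1% lowered. Clustered peaks also had the higher mean normalized count, with a median of 28.0 against 16.2 at 10 to 50 kb. With peaks split into 5 equal groups by mean count, 34.1% were raised under 2 kb and 47.5% at 10 to 50 kb in the middle group, 25.2% and 28.2% in the lowest, and 26.2% and 31.7% in the highest. The gradient was much smaller when spacing was measured to any pooled summit in place of the nearest merged peak, with a difference of 0.42 percentage points in raised peaks in place of 7.57.

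The number of merged peaks within 500 kb of a peak gave a weak gradient. The 10% of peaks with the fewest, 0 to 41 in that window, had 33.0% raised and 9.53% lowered. The 10% with the most, 97 to 155, had 29.1% raised and 15.4% lowered. In each of the 10 classes by this number the raised share exceeded the lowered share on the deposited values, and on the centred values it did so in 1 of the 10.

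The strength of the surrounding open sites separated the directions far more. For this description, made after the data had been seen, strong sites were the 17244 summits in the top 10% by score among the 172434 summits of the CGRP pool, which was made from 14 CGRP libraries and holds no CMV library. For each peak, strong summits within 500 kb but more than 1 kb away were counted. Of 4558 peaks with no such summit nearby, 43.7% were raised and 2.70% lowered, and the median change was 1.76 on the log2 scale. Of 27909 peaks with 9 to 12, 30.1% were raised and 14.6% lowered, with a median of 0.31. Of 5591 peaks with 18 to 25, 15.1% were raised and 25.3% lowered, with a median of -0.22. Of 705 peaks with 26 or more, 6.24% were raised and 44.3% lowered, with a median of -0.60. Raised peaks thus outnumbered lowered peaks up to 17 strong summits and were outnumbered beyond that. On the centred scale the medians of the first and last class were 1.16 and -1.20, and lowered peaks outnumbered raised ones from 6 strong summits on.

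**Figure D1:**
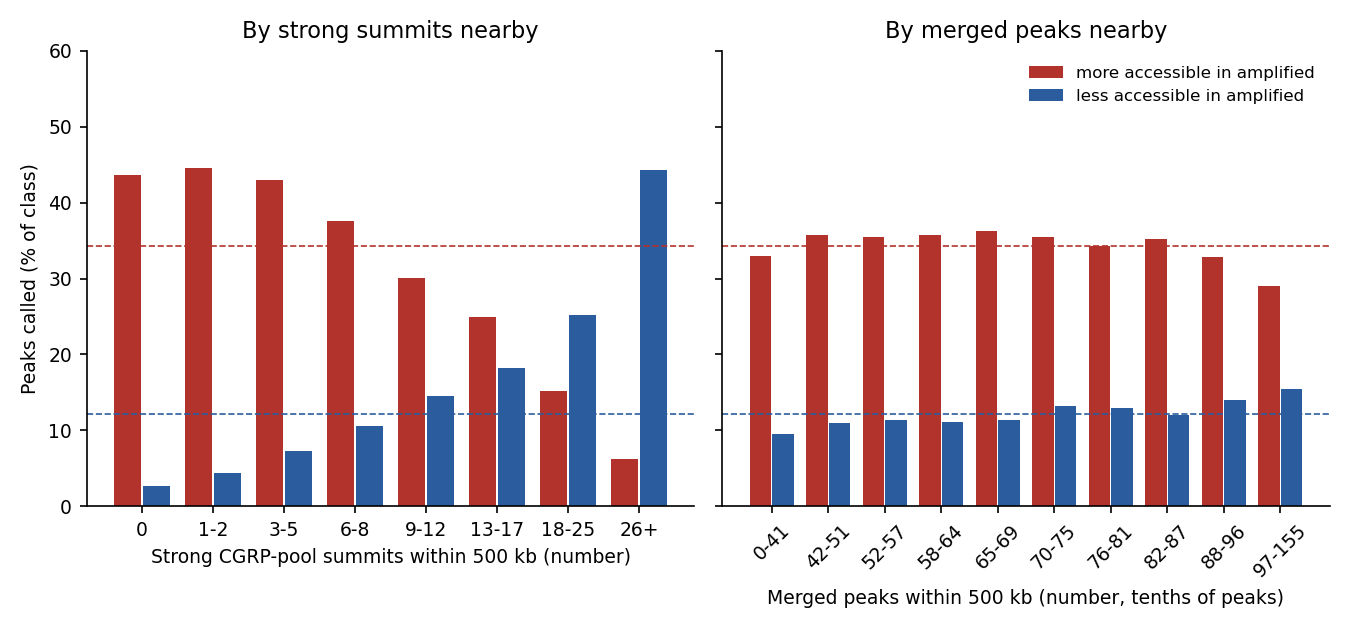
Shares of peaks that were more (red) or less (blue) accessible in the amplified CMV libraries, in percent of each class, by the number of strong CGRP-pool summits within 500 kb (left) and by the number of merged peaks within 500 kb in 10 classes (right). Dashed lines mark the shares over all peaks, 34.3% and 12.2%; on the left the shares cross between the classes of 13 to 17 and 18 to 25 summits, and on the right they do not cross.

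In the CGRP comparison the medians of these classes covered a much smaller range. The median was 0.16 without a strong summit nearby and -0.08 with 26 or more. The classes between these ends did not fall steadily. Their medians lay between -0.0004 and 0.03, and the highest was in the class that starts at 18 strong summits. Of the 3253 peaks without a strong summit that had a CGRP adjusted p, 6 were raised and 12 lowered, and of 696 with 26 or more, 0 were raised and 7 lowered. Over all peaks of the CGRP comparison 0.0752% were raised and 0.779% lowered. In the test of the difference between comparisons, 820 of 4558 peaks without a strong summit nearby were higher in CMV and 51 lower. With 26 or more strong summits, 26 of 705 were higher and 174 lower. Over all peaks the shares were 17.8% higher and 5.62% lower.

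The class of 26 or more also had the highest lowered share within each class of the peak's own CGRP-pool score. Of 183 peaks with a CGRP-pool score of 200 or more and no strong summit nearby, 24.6% were raised, while 33 were lowered. Of 228 such peaks with 26 or more strong summits around them, 4 were raised and 156 lowered. Peaks with no CGRP-pool summit of their own were raised most often, 62.3% of 28448, and 1.04% of them were lowered. Their raised share was 50.6% with no strong summit nearby, 68.5% with 6 to 8 and 34.4% with 26 or more, so among them the order was not steady. At scores under 10 the raised share likewise went from 32.1% without a strong summit to 42.4% with 3 to 5 before it fell to 0 of 46 peaks with 26 or more. The peaks with no CGRP-pool summit of their own entered the merged list through the CMV or mixed pools, which contain amplified libraries. They made up 64.9% of the class without strong summits and 9.08% of the class with 26 or more.

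**Figure D2:**
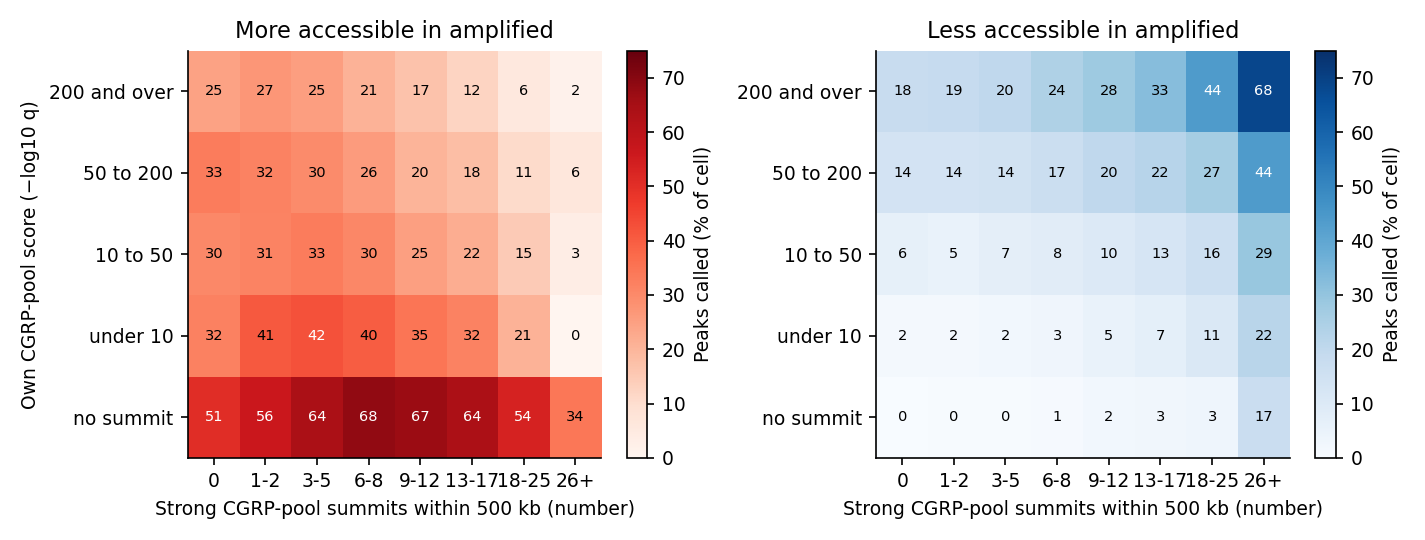
Shares of peaks raised (left, red) and lowered (right, blue) in the amplified CMV libraries, in percent of each cell, by the peak's own CGRP-pool score (vertical, minus log10 q) and by the number of strong CGRP-pool summits within 500 kb (horizontal). In each class of own score the lowered share is highest with 26 or more strong summits, and at scores of 200 and over the raised share there is 1.75%.

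Mean count differed along this gradient, from a median of 9.72 without strong summits nearby to 38.6 with 26 or more. The contrast was also present at like mean count. In the middle of the 5 groups by mean count, 59.8% of 619 peaks without strong summits were raised and 3.55% lowered, against 9.23% and 26.9% of 130 peaks in the class of 26 or more. That class lay in 15 stretches on 9 chromosomes, and chromosome 10 alone gave 327 of the 705 peaks. Without chromosome 10, 8.20% of 378 peaks were raised and 38.9% lowered, with a median of -0.43.

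Shares also changed with the distance to the nearest strong summit. Of 6954 peaks 1 to 5 kb from one, 23.0% were raised and 23.3% lowered. At 20 to 50 kb the shares were 30.4% and 14.1%. At 200 to 500 kb, 47.7% of 11865 peaks were raised and 4.13% lowered, and the median was 1.62. On the centred values lowered peaks exceeded raised ones up to 100 kb, with 44.1% against 11.5% at 1 to 5 kb, and raised ones exceeded lowered ones beyond that. The CGRP medians rose with distance as well, from -0.11 at 1 to 5 kb to 0.16 beyond 500 kb. Beyond 500 kb the CMV raised share was 43.7% and the lowered share 2.70%, and the median mean count was 9.72.

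Neighboring peaks changed alike. Consecutive peaks had a Pearson's r of 0.35 between their log2 fold changes over 113681 pairs, which share libraries and local depth. Consecutive peaks under 1 kb apart, whose windows adjoin or lie close together, had r = 0.67. From 5 to 500 kb between consecutive peaks r lay between 0.30 and 0.34. Where both peaks of a pair were called, 83.2% of 27485 pairs moved the same way, against 61.2% for directions drawn independently at the overall shares. Pairs were then taken whether or not they were consecutive, and beyond 1 Mb only every 10th peak served as the first of a pair. Over these pairs, r was 0.44 at 1 to 2 kb, 0.17 at 200 to 500 kb, 0.11 at 1 to 2 Mb and 0.02 at 10 to 20 Mb. The CGRP comparison gave r = 0.23 at 1 to 2 kb and 0.03 at 1 to 2 Mb.

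**Figure D3:**
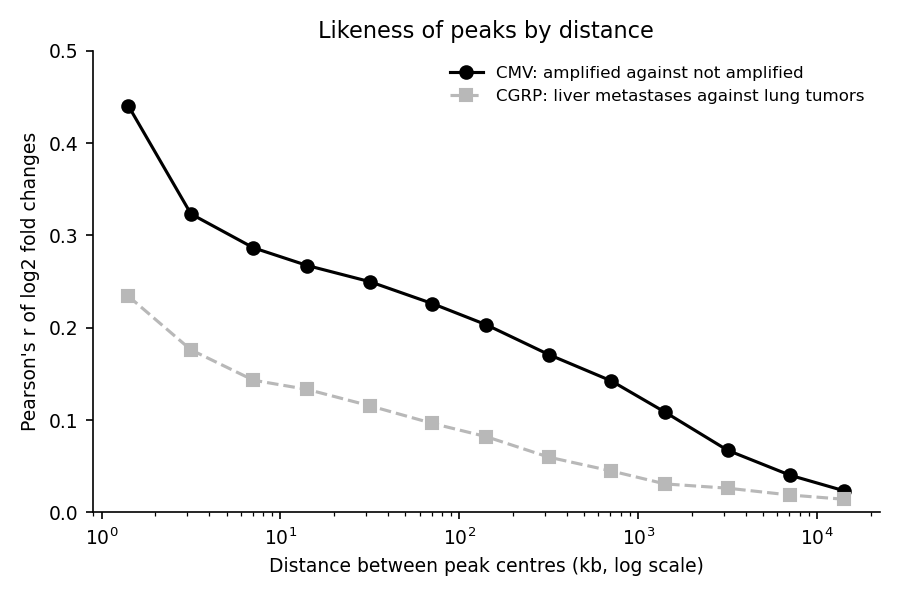
Pearson's r of the log2 fold changes of pairs of peaks, by the distance between their centres (kb, log scale), in the CMV comparison (black circles) and the CGRP comparison (grey squares). All pairs were used up to 1 Mb, and beyond that only every 10th peak served as the first of a pair. In CMV r drops from 0.44 at 1 to 2 kb to 0.02 at 10 to 20 Mb and lies above CGRP at every distance plotted.

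These changes formed long one-sided segments, described here as runs of consecutive peaks that contain no call in the opposite direction. Runs with at least 10 raised peaks numbered 1017, held 64.8% of all raised peaks and spanned 990 Mb. Their median density was 3.85 strong CGRP summits per Mb, and over their whole span it was 3.53 per Mb, against 6.67 over the 20 chromosomes. Runs with at least 10 lowered peaks numbered 160, held 18.5% of the lowered peaks, spanned 143 Mb and had a median of 19.6 strong summits per Mb, or 12.4 per Mb over their whole span. Centred calls gave 466 raised and 710 lowered runs of that size, with medians of 1.39 and 17 strong summits per Mb. Runs were followed across any gap between merged peaks, so all these spans can include stretches without merged peaks. On the deposited calls, tested peaks per Mb had a median of 67.3 in the raised and 80.4 in the lowered runs. Over the whole spans there were 45.5 and 37.1 per Mb.

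The 5 raised runs with the most calls are given with the genes known from those parts of the mouse map. Positions of the runs are those of the deposited peaks on mm9, while gene names are background from the mouse map and the order of genes comes from RefSeq on build GRCm38, so no peak was assigned to a gene and no gene theme was tested. The run with the most calls, on chromosome 8 from 28686990 to 31868672, had 146 of 176 peaks raised, and its log2 fold changes had a median of 2.92 with quartiles of 2.12 and 3.88. It lies in the part of chromosome 8 that carries Unc5d, a netrin receptor gene of migrating neurons. The run held 3 strong CGRP summits. Its median in the CGRP comparison was 0.10, with 0 of 161 peaks called in either direction. Over all peaks of that comparison 0.0752% were raised and 0.779% lowered. So few CGRP calls do not set this run, or the runs below, apart from other peaks. In the test of the difference 77 of the 176 peaks were higher in CMV and 0 lower, while over all peaks the shares were 17.8% and 5.62%. The runs were picked by their CMV calls, which sets the direction of this difference in advance, here and in each run below.

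The second raised run covered chromosome 18 from 26180132 to 29988887, with 138 of 257 peaks raised and a median of 2.18. It falls in the segment between Celf4, which encodes an RNA-binding protein of neurons, and Pik3c3, a lipid kinase gene, and RefSeq lists 0 protein-coding genes between them. The run ended near a stretch without merged peaks from 29995780 to 32022609, so its full extent is unknown. Its CGRP median was -0.10, with 0 peaks raised and 2 lowered of 156, and 67 peaks were higher in CMV in the test of the difference.

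The third raised run, on chromosome 16 from 40366786 to 42886048, had 136 of 198 peaks raised and a median of 1.89. It lies around Lsamp, a gene for a cell adhesion molecule of limbic neurons. The fourth extended over 8.87 Mb of chromosome 3, from 41547255 to 50413638, with 126 of 205 peaks raised and a median of 2.03. That segment carries Pcdh10 and Pcdh18, protocadherin genes of neuronal adhesion, with 1 protein-coding gene between them in RefSeq. The fifth, on chromosome 6 from 104442561 to 108077120, had 125 of 241 peaks raised and a median of 1.75. It covers the neighborhood of Cntn6 and Cntn4, adjacent contactin genes whose products guide axons. Across these 3 runs the CGRP medians were 0.31, 0.10 and -0.07, with 0 peaks raised and at most 1 lowered in each, and 48, 52 and 68 peaks were higher in CMV than in CGRP.

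**Figure D4:**
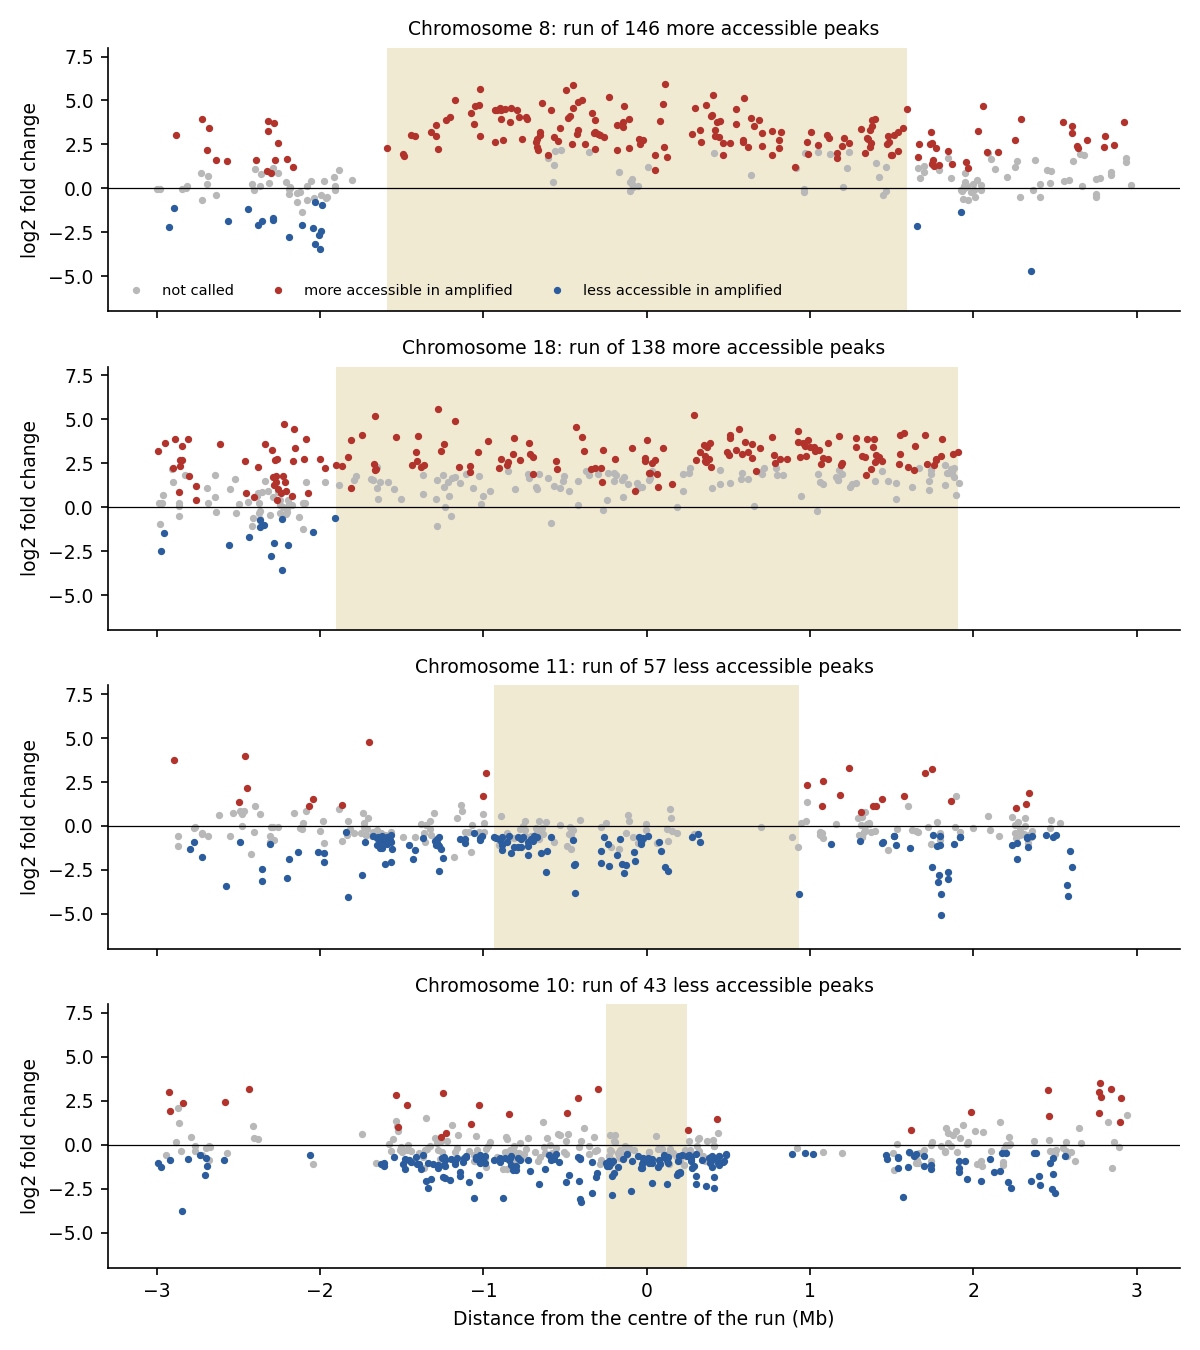
Log2 fold change of each peak (vertical) by distance from the centre of a run (horizontal, Mb) for the 2 raised runs with the most calls (chromosomes 8 and 18) and 2 lowered runs (chromosomes 11 and 10); shading marks the run, red and blue points are called peaks and grey points are not called. The raised runs hold 146 and 138 raised peaks that spread over 3.18 and 3.81 Mb with medians of 2.92 and 2.18, while the lowered runs hold 57 and 43 lowered peaks with medians of -0.69 and -0.75.

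The lowered runs with the most calls were smaller in effect on the deposited values, from which the median of 0.60 was not subtracted. Of the first 5, 4 are described here. The first, on chromosome 11 from 69571969 to 71438430, had 57 of 111 peaks lowered, and its log2 fold changes had a median of -0.69 with quartiles of -1.18 and -0.41. It lies in the segment that carries Dlg4, a postsynaptic scaffold gene, and Pfn1, the gene for the actin-binding protein profilin, which RefSeq separates by 29 protein-coding genes. The run held 24 strong CGRP summits. Its CGRP median was 0.14 with 0 of 106 peaks called, and 44 peaks were lower in CMV in the test of the difference.

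The second lowered run, on chromosome 6 from 122386064 to 124990001, had 48 of 92 peaks lowered and a median of -0.64. Its segment carries Nanog, a pluripotency gene, and Eno2, which encodes neuron-specific enolase, a marker of neuroendocrine cells, with 36 protein-coding genes between them. Another was compact, with 43 of 77 peaks lowered in 494 kb of chromosome 10 from 80376868 to 80870756 and a median of -0.75. It lies near Gadd45b, a stress-response gene, and Eef2, a translation elongation factor gene, with 9 protein-coding genes between them. The last of the 4, on chromosome 11 from 68825738 to 69495719, had 41 of 68 peaks lowered and a median of -0.68. It lies in the segment with the clock gene Per1 and Trp53, the tumor suppressor gene deleted in both groups, with 16 protein-coding genes between them. In these 3 runs 0 peaks were called in the CGRP comparison, and 23, 23 and 28 peaks were lower in CMV than in CGRP.

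Medians of these 4 runs thus lay between -0.64 and -0.75, with median standard errors of 0.28 to 0.40. The remaining run of the first 5, whose position is not reported here, had 46 of 126 peaks lowered and a median of -0.43. The sixth lowered run, named here after its values were seen, had a larger median change. On chromosome 3 from 91910419 to 94177465, 40 of 54 peaks were lowered with a median of -2.27 and quartiles of -3.61 and -0.86. The segment is that of the epidermal differentiation complex, which runs from Lor to Flg and beyond and encodes proteins of the cornified skin barrier. The run held 10 strong CGRP summits, 4.41 per Mb, below the 6.67 over the 20 chromosomes and unlike the median of long lowered runs. Its CGRP median was -0.23 with 0 of 45 peaks called, and 23 peaks were lower in CMV in the test of the difference.

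Single peaks were taken from each spacing class by the size of their change. Among called peaks with at least the median mean count, the largest rise in the class of 10 to 50 kb, at chromosome 3 from 74250093 to 74250593, had a log2 fold change of 7.56 ± 0.82 (SE) in the authors' deposited table, with an adjusted p of 2.1e-16. Its nearest merged peak lay 38.1 kb away, and its CGRP change was -0.79 ± 0.91. In the class under 2 kb, a peak on chromosome 14 from 79582960 to 79583460 rose by 6.83 ± 0.93 in the authors' deposited table. Neither peak had a CGRP-pool summit of its own. In the same table a peak on chromosome 10 from 84047402 to 84047902 fell by 5.18 ± 0.67, with an adjusted p of 6.5e-12. That peak was lower in CGRP metastases as well, by the deposited values, at -1.94 ± 0.44 with an adjusted p of 0.0034.

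The peak on chromosome 11 from 9588882 to 9589382, 58.9 kb from its neighbor, fell by 4.92 ± 0.68 in the authors' deposited table. Its CGRP change in that comparison's deposited table was -5.44 ± 0.65, with an adjusted p of 7.3e-12, so it was lowered in both. The most isolated raised peak, on chromosome 13 from 87807562 to 87808062, had no merged peak within 969 kb and rose by 3.68 ± 1.06 in the authors' deposited table. The most isolated lowered peak, on chromosome 14 from 112936176 to 112936676, lay 462 kb from its neighbor and fell by 3.75 ± 1.04 in the authors' deposited table. No limit on mean count applied to these last 2 peaks. Their mean counts were 7.22 for the raised and 5.30 for the lowered peak, below the median of 21.2 over tested peaks.

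In most of the densest clusters the raised share was below, and the lowered share above, that over all peaks, 34.3% raised and 12.2% lowered. The window of chromosome 18 from 36 to 36.1 Mb held 28 peaks, of which 4 were raised and 1 lowered, with a median of -0.05. The window of chromosome 5 from 125.6 to 125.7 Mb also held 28, with 3 raised and 7 lowered and a median of 0.09. Of 3 windows tied at 26 peaks, that on chromosome 1 from 174.4 to 174.5 Mb had 14 lowered (53.8%), 3 raised and a median of -0.47, and that on chromosome 18 from 25.8 to 25.9 Mb had 12 raised and a median of 0.40. That last window also held 4 lowered peaks. The window on chromosome 9 from 107.5 to 107.6 Mb had 4 raised and 6 lowered.

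Whole chromosomes differed as the segments did. Chromosome 18 had the highest median log2 fold change among the 18 chromosomes with at least 1000 peaks, 1.16, followed by chromosome 14 at 0.94 and chromosome 12 at 0.86. Chromosome 11 had the lowest, -0.05, and there 19.5% of peaks were raised and 20.4% lowered. The next lowest was chromosome 5 at 0.15. Over these 18 chromosomes, the median correlated with the number of RefSeq protein-coding genes per Mb, with Pearson's r of -0.79 and Spearman's rho of -0.88. With strong CGRP summits per Mb r was -0.63 and rho -0.69. These are descriptions, since all chromosomes were measured in the same libraries. Chromosomes 4 and 7 were represented by the peaks outside their empty stretches. In the CGRP comparison the medians of chromosomes 18 and 11 were -0.07 and 0.09.

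**Figure D5:**
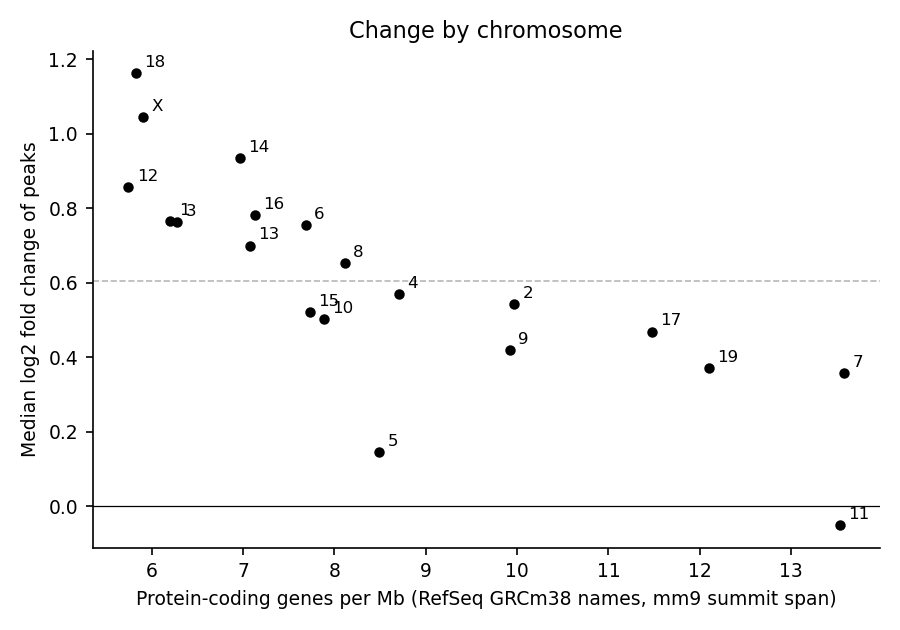
Median log2 fold change of peaks in amplified against other CMV libraries (vertical) by protein-coding genes per Mb (horizontal), one point per chromosome with its number; the dashed line marks the median of all peaks, 0.60. Chromosomes with few genes per Mb, such as 18, 14 and 12, lie above the dashed line, and gene-dense chromosome 11 lies lowest at -0.05.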

How the data were processed

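ATAC-seq libraries were made with Tn5 and a modified Nextera kit, per the labels' protocols. The submitters' processing notes name mm9 as the build, and DESeq2, MACS2 and Bowtie2 as tools without saying what each did. The authors deposited 3 lists of summits called on pooled libraries, whose scores have the range of −log10 q-values. They also deposited a table per comparison with a mean normalized signal, a log2 fold change and its standard error, a test statistic (a score), a p-value and an adjusted p-value. Values per library, and so depth, were not analysed here, and no model was refitted. Intervals and spreads between samples are therefore carried by the deposited standard errors only; nothing in the labels says that samples came from separate animals. Peaks were joined by name and counted as changed at the deposited adjusted p under 0.05. Centred calls subtracted the median and kept the deposited standard error. Own steps (Python 3.11.15, numpy 2.4.6, pandas 2.3.3, scipy 1.17.1) were tested on simulated data. Named peaks were the 2 largest called changes in each direction and spacing class at or above the median mean count, the 3 most isolated called peaks, the 3 densest windows and the 5 runs with the most calls; a selection is printed, and the position of 1 lowered run is not reported here. Distances from peaks to genes, gene lists and cell type markers were not analysed here; genes were only counted by RefSeq order and per chromosome. The comparison and descriptions were chosen with earlier results of these data known.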

Additional observations from a re-analysis of the deposited data

How the results depend on the processing

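Of 66 alternatives over 16 values taken one by one, 41 moved a value past the margin set for it and 25 did not. A change of sign was looked for only in the differences between classes, and 0 of those turned. Centring turned the balance of raised against lowered peaks and of the longest runs (112 raised against 154 lowered calls). Bonferroni adjustment left 4247 raised and 1785 lowered peaks, a mean count of at least 20 left 20403 raised, centring gave 22710 and 29095, and the second deposited test 21603 and 5280. That second test gave 12985 and 3195 at an adjusted p under 0.01, and 11326 raised at the mean count minimum. For spacing (10 to 50 kb minus under 2 kb) the differences in percentage points were 10.9 raised and -3.83 lowered at the mean count minimum, 6.58 and -13.2 centred, and 0.42 and -0.89 to the nearest summit of any pool. For peak density (the 10% of peaks with the most minus the 10% with the fewest) they were -10.8 raised and 11.9 lowered with 100 kb either side, -1.24 and 4.59 with 1 Mb, -5.17 and 6.87 away from stretches without merged peaks, and, lowered only, 3.80 at the mean count minimum and 11.9 centred. For strong summits they were -40.2 and 23.5 at the mean count minimum, -18.4 and 40.0 centred, -20.9 and 17.5 for the top 5%, -29.0 and 22.3 for the top 20%, -24.9 and 19.7 with 1 Mb, -20.9 and 19.4 for peaks with a CGRP summit, and 19.4 lowered with 100 kb; without each chromosome in turn they stayed from -27.2 to -26.5 and from 20.1 to 21.5. Neighbor r was 0.36 where both mean counts reached 20, and the longest lowered run held 154 calls when centred. A 100 bp overlap gave 61.1% raised among peaks with a CMV but no CGRP summit and 26.9% lowered among those with a CGRP but no CMV summit, in place of 65.1% and 31.7%. The causes were not tested. Leaving out single libraries was not possible without values per library, and the alternatives for gene loci were not run. No paired analysis was possible because the columns carry no replicate numbers. The strong-summit description, its alternatives, the pairs over all distances and the alternatives of the second test were chosen after seeing the data. Depth is unknown, so what it limits cannot be stated.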

Other observations

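The lists of pooled summits differ in length, and the depth of the pools is unknown, so their counts describe the lists and not the tumors. The CMV pool was made from 19 libraries and held 251512 summits against 172434 in the CGRP pool. Of the CMV pool's libraries, 15 were outside the comparison for low enrichment, 6 of them labelled as amplified and 9 not. The other 4 came from the comparison, 2 amplified and 2 not. Over 268 windows of 10 Mb with more than 100 CGRP summits, the number of CMV summits per CGRP summit had a median of 1.38 and ranged from 0.68 to 6.48. The highest window was chromosome 4 from 70 to 80 Mb, with 1634 CMV and 252 CGRP summits, where the merged list held 0 tested peaks. Chromosome 5 from 80 to 90 Mb followed at 6.24, and the median log2 fold change there was 1.67 over 293 peaks. Chromosome 15 from 40 to 50 Mb came next at 5.27, with a median of 1.74 over 468 peaks. The lowest was chromosome 4 from 150 to 160 Mb, with 485 CMV and 715 CGRP summits and a median of -0.97 over 175 peaks.

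Across the 236 such windows with at least 20 tested peaks, the log2 of this ratio and the median log2 fold change had a Pearson's r of 0.85, and the ratio and the median had a Spearman's rho of 0.88. The CMV pool and the comparison share 4 libraries, and 6 further libraries of that pool were labelled as amplified. The merged list was drawn from the pools as well, so these values are a description.

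Merged peaks with a summit in the CMV and mixed pools but none in the CGRP pool numbered 17428, of which 79.3% were raised and 0.281% lowered. Those with a summit in the CGRP and mixed pools but none in the CMV pool numbered 8084, of which 3.71% were raised and 36.7% lowered. Of the 73848 peaks with a summit in all 3 pools, 28.0% were raised and 14% lowered. Their median was 0.29, below the 0.60 over all tested peaks, and no centred shares are given for these pool classes. The mixed pool held 11 libraries of the comparison, so the pools are not independent of it.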
